A study of Mus musculus with 536 samples.

Results

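The 7 genes of the T cell receptor complex and of T cell costimulation described here were measured in the blood of irradiated mice. They are Cd3d, Cd3e, Cd3g, Cd247, Lat, Cd28 and Thy1, taken by name from the 12393 genes with a probe set of their own on the array, and each was read from its brightest probe set on average. The 536 arrays (Affymetrix Mouse 430A 2.0) held peripheral blood RNA from 534 C57BL/6 mice, which were 10 to 12 weeks old and of both sexes. The mice had been given a single whole-body dose from a Cs137 source at 480 cGy per minute, or none, and were bled once, by terminal cardiac puncture, into PAXgene fluid. Globin RNA had been reduced before labelling. In the dose-time set, 240 mice in 48 groups of 5 had received 100, 200 or 300 cGy, 450 or 600 cGy, 800 or 1050 cGy, or 0 cGy, and were bled at 6, 24, 48, 72, 120 or 168 hr. In the sex-treatment set, 226 mice (111 female, 115 male) in 48 groups of 3 to 5 had received 200, 300 or 600 cGy or 0 cGy with GCSF, LPS or no agent, and were bled at 6 or 24 hr. The 50 mice of a small treatment set, in 9 groups with 5 or 6 mice each, were bled at 6 hr after 150 or 600 cGy or 0 cGy with GCSF, LPS or no agent. A small 7 day set held 10 mice at 168 hr after 150 cGy and 3 unirradiated mice at 168 hr, and 5 further unirradiated mice of that set only added to the estimate of the spread. Sex is labelled in the sex-treatment set alone, and the labels are silent on the timing of the agents.

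Cd3d, Cd3e and Cd3g encode the CD3 delta, epsilon and gamma chains, which pair with the antigen-binding T cell receptor and carry the tyrosine motifs that signal for it. Cd247 encodes the zeta chain of the same complex, which NK cells also use with their Fc receptors. Lat encodes the membrane adaptor that is phosphorylated after receptor engagement and gathers the next signalling proteins, and platelets, mast cells and NK cells carry it too. Cd28 encodes the costimulatory receptor for CD80 and CD86, and Thy1 encodes CD90, a small surface glycoprotein of mouse T cells that is also found on neurons and fibroblasts. In whole blood, fewer T cells and less RNA per T cell cannot be told apart, and circulating lymphocytes are known to be among the cells most sensitive to radiation. Values are log2 signals as deposited, so a difference of 1 is a doubling, and a dose slope is the change in log2 signal per 100 cGy over the group means of one time.

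Cd3g, Cd3d and Cd3e are neighbours, in that order, on mouse chromosome 9 (RefSeq GRCm38.p6). RefSeq promoter windows, 250 bases before to 50 after the start of the gene, were held for 5 of the 7 genes. The windows of Cd3g and Cd3d, which are transcribed in opposite directions from neighbouring starts, and of Lat, whose time course differed from theirs, are printed 5′ to 3′ on the strand of the gene. Capitals mark exact matches, on either strand, to the letters AGGAAG for ETS factors, TGTGGT for RUNX factors, AGATAA for GATA factors, CAGNTG for the E-box, CTTTGA for TCF/LEF factors or TATAAA for the TATA box, and no marked matches overlap.
Cd3g (chr9:44980382-44980681, minus strand): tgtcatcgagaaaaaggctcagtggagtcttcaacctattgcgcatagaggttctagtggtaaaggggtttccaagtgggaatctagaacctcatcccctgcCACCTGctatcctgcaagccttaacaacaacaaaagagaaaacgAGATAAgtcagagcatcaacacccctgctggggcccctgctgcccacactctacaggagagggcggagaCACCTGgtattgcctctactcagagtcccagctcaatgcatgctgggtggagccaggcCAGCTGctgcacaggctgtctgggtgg
Cd3d (chr9:44981536-44981835, plus strand): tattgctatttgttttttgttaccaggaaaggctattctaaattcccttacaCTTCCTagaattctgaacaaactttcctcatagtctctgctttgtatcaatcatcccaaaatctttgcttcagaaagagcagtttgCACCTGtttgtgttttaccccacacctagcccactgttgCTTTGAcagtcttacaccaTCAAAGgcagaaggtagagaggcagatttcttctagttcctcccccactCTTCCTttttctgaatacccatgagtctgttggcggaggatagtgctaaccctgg
Lat (chr7:126369519-126369818, minus strand): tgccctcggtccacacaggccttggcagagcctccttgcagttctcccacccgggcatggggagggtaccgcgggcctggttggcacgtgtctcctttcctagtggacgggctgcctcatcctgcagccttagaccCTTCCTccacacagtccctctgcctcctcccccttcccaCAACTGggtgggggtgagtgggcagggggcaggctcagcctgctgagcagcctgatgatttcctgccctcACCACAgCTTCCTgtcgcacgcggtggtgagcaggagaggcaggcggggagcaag
The Cd3g window held 3 E-boxes and 1 GATA match and no ETS match, and the Cd3d window held 2 ETS, 1 E-box and 2 TCF/LEF matches. The Lat window held 2 ETS, 1 RUNX and 1 E-box match, and was richer in G and C (65.7%) than those of Cd3g (54.0%) and Cd3d (42.3%). None of the 3 held a TATA box match. Of all 32851 promoter windows of the table, 35.4% held the ETS letters, 16.8% RUNX, 11.2% GATA, 51.4% E-box, 16% TCF/LEF and 13.6% TATA box. A match describes the letters in the window only.

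Before the results, 4 mice stood apart from their groups in 3 or more of the 7 genes, each by its gap to the nearest mouse relative to the group's range. Mouse 10 of the 800 cGy group at 24 hr was low in all 7 genes (Cd3d 7.63, against 10.27 to 10.72 in the other mice of the group). Mouse 4 of the 300 cGy group at 48 hr was low in 5 genes, mouse 10 of the unirradiated group without agent in the small treatment set was low in 3, and male mouse 3 of the 200 cGy LPS group at 24 hr was high in 5. Without these 4 mice, 268 of 273 results per gene kept their side of the threshold and 5 passed it newly. Alb, the serum albumin gene and a hepatocyte marker, lay between 5.84 and 7.35 in the group means at 6 hr, but between 12.48 and 14.64 in every group at 450 cGy and above at 120 and 168 hr. These values are given below beside the times they touch.

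Across the time course, the 3 CD3 chains and Cd247 fell with dose at every time, while Lat, Cd28 and Thy1 each had a time or more without a trend (adjusted p under 0.05 by limma over all genes). All 7 genes fell with dose at 6 hr, where 18.5% of all genes fell. At 24 hr 5 genes fell, against 19.8% of all genes, with Lat at -0.02 ± 0.02 per 100 cGy and Cd28 at -0.05 ± 0.02 (SE) short of the threshold. At 48 hr 6 fell, against 23.3% of all genes, and at 72 hr 5 fell, against 27.1%. At 120 hr 6 genes fell, against 47.0% of all genes, and at 168 hr all 7 fell, against 46.6%. The median slope of the 7 genes was -0.12 at 6, 24 and 120 hr, -0.18 at 48 hr, -0.21 at 72 hr and -0.17 at 168 hr, while the median over all genes lay between -0.02 and 0.01. With the unirradiated mice left out, so that the slope ran over 100 to 1050 cGy (chosen after seeing the data), 5, 4, 6, 5, 4 and 6 genes fell at the 6 times in order. The shares of all genes that fell over these doses are not given here. The calls lost were those of Cd3d at 6 hr (adjusted p = 0.447) and 120 hr (adjusted p = 0.0971), Cd3e at 6 hr (adjusted p = 0.26), 24 hr (adjusted p = 0.119) and 120 hr (adjusted p = 0.0841), and Thy1 at 168 hr (adjusted p = 0.417).

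**Figure D1:**
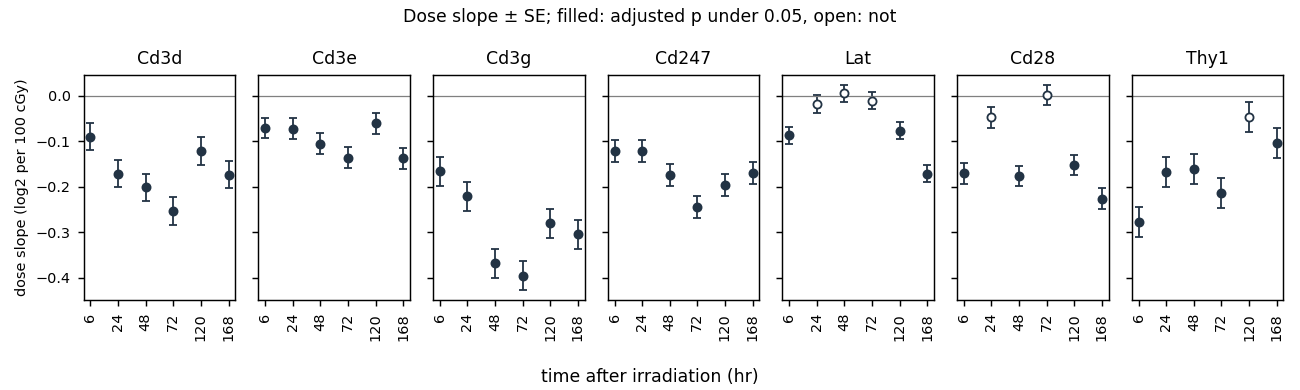
Dose slope (log2 signal per 100 cGy, with its SE) of the 7 genes against time after irradiation in the dose-time set, with filled points where the adjusted p was under 0.05. Cd3g has slopes from -0.17 to -0.40, whereas Lat at 24, 48 and 72 hr, Cd28 at 24 and 72 hr and Thy1 at 120 hr are open points.

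The slope differed between times for 6 of the 7 genes in a moderated F test, as it did for 92.3% of all genes. Cd28 (adjusted p = 7.72e-12) and Lat (adjusted p = 5.99e-10) had the smallest p-values, and Cd3e missed the threshold (adjusted p = 0.0527). A number code in the titles has 5 values in the dose-time set, taken here as array runs, although the labels do not call them so. Within these runs, the slopes of Cd3d, Cd3g and Cd247 were below 0 in 5 of 5 runs at all 6 times. Cd3e and Thy1 at 120 hr and Cd28 at 72 hr had slopes below 0 in 3 of 5 runs, and Lat at 48 hr in 2 of 5.

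At 6 hr, the CD3 chains were already lower after irradiation. Cd3d averaged 10.12, 9.43, 9.11, 9.04, 8.78, 8.80, 9.02 and 8.78 at the 8 doses from 0 to 1050 cGy, with SDs from 0.17 to 0.65, so that the means were nearly level from 450 cGy. In single mice it was 8.96, 8.51, 8.84, 8.81 and 8.79 at 1050 cGy, against 9.99, 9.95, 10.47, 10.00 and 10.21 at 0 cGy. The lowest unirradiated mouse was thus above the highest mouse at 1050 cGy, and of the 7 irradiated groups 6 lay wholly below the unirradiated one. The share of all genes without such overlap was not counted, here or below. Cd3g was 6.72, 5.61, 6.07, 6.43 and 5.86 at 1050 cGy, against 8.46, 8.29, 8.95, 8.24 and 8.22 at 0 cGy, a level 4.90 times lower (difference -2.29 ± 0.43, SE). Its slope was -0.17 ± 0.03 (adjusted p = 4.72e-06), while the slopes of Cd3d (-0.09 ± 0.03, adjusted p = 0.0116) and Cd3e (-0.07 ± 0.02, adjusted p = 0.00872) were shallower. Over the irradiated groups alone, 100 to 1050 cGy, the slopes of Cd3d (-0.05, adjusted p = 0.447) and Cd3e (-0.05, adjusted p = 0.26) did not pass, while that of Cd3g did (-0.12, adjusted p = 0.0173).

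The zeta chain and the adaptor followed at 6 hr. Cd247 averaged 6.84 ± 0.45 at 1050 cGy and 8.49 ± 0.28 at 0 cGy (SD, n = 5 each), with a slope of -0.12 ± 0.02 (adjusted p = 1.44e-05). Lat averaged 8.20 ± 0.38 at 1050 cGy and 9.08 ± 0.21 at 0 cGy, with a slope of -0.09 ± 0.02 (adjusted p = 7.59e-05), and only its 600 and 1050 cGy groups lay wholly below the unirradiated mice.

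Thy1 and Cd28 had the steepest slopes of the 7 at 6 hr together with Cd3g. Thy1 was 5.84, 6.39, 5.73, 6.15 and 5.72 at 1050 cGy, against 9.09, 9.37, 9.77, 9.45 and 9.01 at 0 cGy, a level 10.4 times lower. Its group means were 9.34, 8.15, 7.32, 7.00, 6.36, 6.13, 6.25 and 5.96 from 0 to 1050 cGy, so that most of the difference was present at 450 cGy. All 7 irradiated groups lay wholly below the unirradiated mice for Thy1, and its slope was -0.28 ± 0.03 (adjusted p = 4.86e-13). Cd28 averaged 6.06 ± 0.55 at 1050 cGy and 7.97 ± 0.35 at 0 cGy, with a slope of -0.17 ± 0.02 (adjusted p = 7.71e-11). Measured within each array against Cd3d, the Thy1 slope at 6 hr was steeper by -0.19 ± 0.01 per 100 cGy (SE; adjusted p = 1.46e-35 over 36 such differences).

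**Figure D2:**
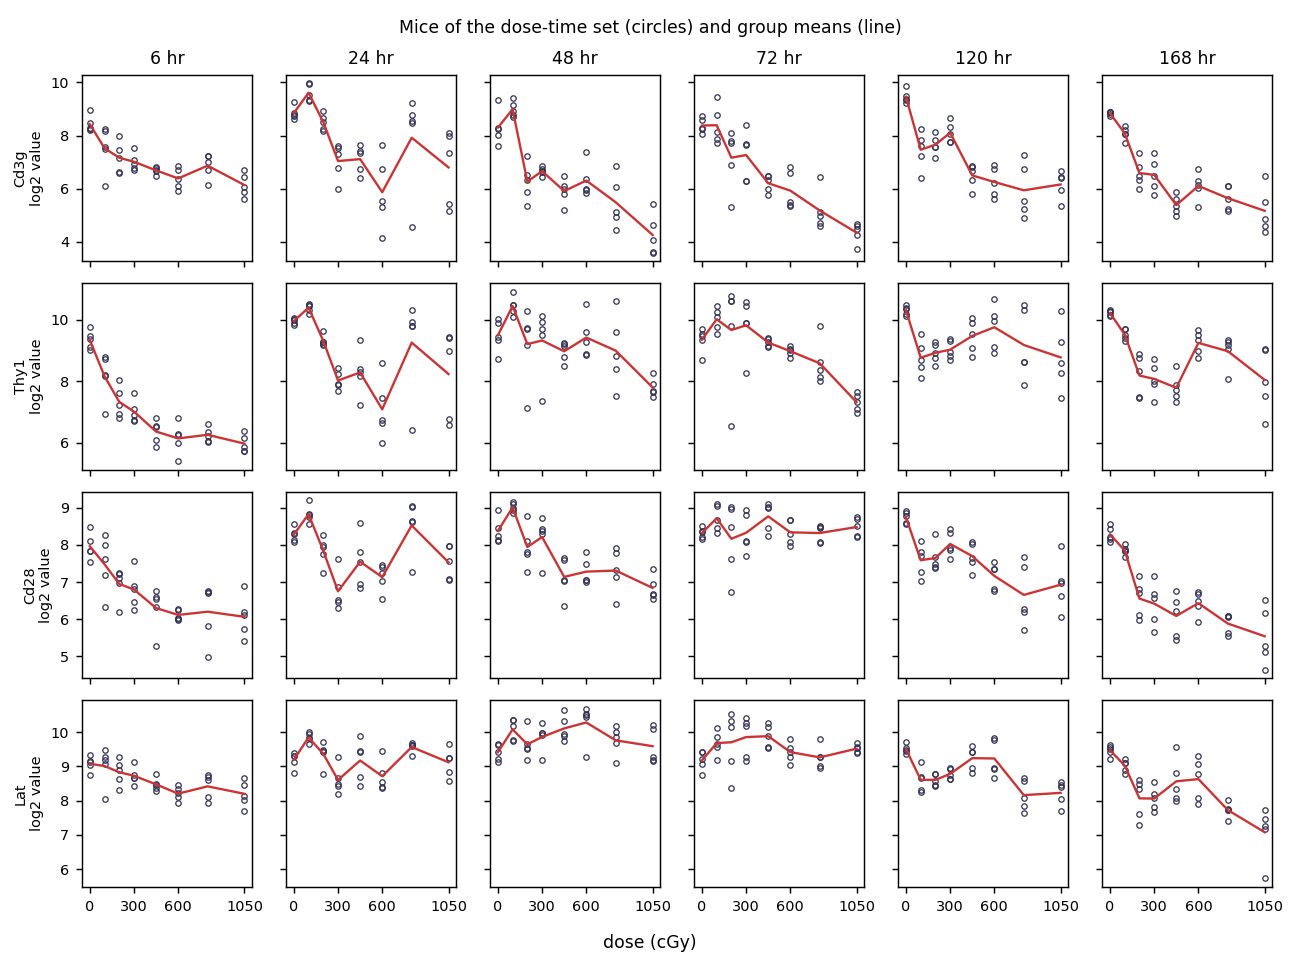
Log2 signal of Cd3g, Thy1, Cd28 and Lat in every mouse of the dose-time set (circles) against dose in cGy, with the group means joined by a line, one column for each time. At 6 hr Thy1 lies at 5.72 to 6.39 in the 1050 cGy mice, below all unirradiated mice, and at 24 hr 1 mouse at 800 cGy lies far below the other 4.

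Lymphocyte and myeloid markers outside the T cell lists moved at the same time. At 6 hr 10 of 11 B cell markers and 8 of 10 NK cell markers fell with dose, 9 of 10 neutrophil markers rose, and none of 12 hepatocyte markers passed the threshold. The mean of the B cell markers was 6.14 at 1050 cGy and 9.50 at 0 cGy, and that of the neutrophil markers was 10.47 at 1050 cGy and 8.03 at 0 cGy. The part of these shifts in the values of the 7 genes was not tested.

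Other T cell genes, in lists of receptor signalling (23 measured of 31 listed), surface and costimulation (20 of 26) and transcription factors (11 of 12), fell less uniformly at 6 hr. Of the signalling genes 8 fell and 3 rose, with a median slope of -0.01, and of the surface genes 6 fell and none rose, with a median of -0.02. Of the factors 5 fell and none rose, with a median of -0.04. Signalling genes with large 600 minus 0 cGy differences among those called were Nfatc3 (-1.93 ± 0.20, SE), a calcium-responsive factor, and Trat1 (-1.32 ± 0.30), an adaptor bound to the receptor. Among surface genes these were Cd2 (-2.34 ± 0.32), an adhesion receptor, Cd5 (-2.31 ± 0.42), a brake on receptor signals, and Cd27 (-2.16 ± 0.34), a costimulatory receptor of the TNF receptor family. Among factors they were Ets1 (-2.70 ± 0.38), Bcl11b (-0.48 ± 0.32) and Tox (-0.20 ± 0.14), of which the last differences are small beside their errors although the slopes passed (Tox -0.03 ± 0.01, adjusted p = 0.0343).

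At 24 hr the dose order broke up. The CD3 chains had higher means at 100 than at 0 cGy, were lowest at 600 cGy and near the unirradiated level in most 800 cGy mice. Cd3d averaged 10.50, 11.23, 10.16, 8.73, 9.04, 8.01, 9.93 and 8.83 from 0 to 1050 cGy. At 800 cGy it was 10.72, 10.41, 10.64, 10.27 and 7.63, against 10.53, 10.40, 10.28, 10.51 and 10.76 at 0 cGy. At 1050 cGy it was 9.003, 10.02, 7.43, 7.58 and 10.11, so that the mice of this dose spread far more widely than the unirradiated ones.

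B cell and neutrophil markers also differed among those mice. At 800 cGy the low mouse had a B cell marker mean of 6.11, against 8.02 to 8.77 in the other mice, and a neutrophil marker mean of 9.54, against 7.93 to 8.19. At 1050 cGy the mice with Cd3d of 7.43 and 7.58 had B cell means of 7.11 and 6.24, against 9.20, 9.07 and 7.45 in the other 3, of which the last lay nearer to the low mice. Alb was at 10 or more in 23, 26 and 21 mice at 24, 48 and 72 hr, unirradiated ones included (3 of 5 at 24 hr). Leaving out the whole 800 cGy group at 24 hr gave 6 genes that fell in place of 5, since Cd28 then passed (slope -0.10, adjusted p = 0.00163), and leaving out the 4 mice that stood apart kept 5.

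At 48 and 72 hr Cd3g fell furthest. It was 5.43, 4.07, 3.60, 4.63 and 3.60 at 1050 cGy at 48 hr, against 9.34, 8.30, 8.02, 8.24 and 7.60 at 0 cGy, a level 16.4 times lower. At 72 hr it was 4.59, 4.48, 4.26, 4.69 and 3.73 at 1050 cGy, against 8.29, 8.25, 8.59, 8.72 and 8.04 at 0 cGy. Its slope at 72 hr, -0.40 ± 0.03 (adjusted p = 2e-25), was steeper than that of Cd3d by -0.14 ± 0.02, and the Cd3g slope was below that of Cd3d at all 6 times by -0.05 to -0.17 (adjusted p from 3.43e-13 to 0.0255 over 36 differences). At 72 hr Cd3d averaged 7.57 ± 0.35 at 1050 cGy and 10.01 ± 0.23 at 0 cGy (SD, n = 5 each), while Cd3e averaged 7.98 ± 0.15 at 1050 cGy and 9.31 ± 0.14 at 0 cGy. Cd247 averaged 6.08 ± 0.22 at 1050 cGy and 8.48 ± 0.19 at 0 cGy.

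In the probe sets used, Lat at 48 and 72 hr and Cd28 at 72 hr had no dose trend. Lat at 48 hr averaged 9.41, 10.08, 9.64, 9.86, 10.11, 10.28, 9.76 and 9.59 from 0 to 1050 cGy, a slope of 0.00 ± 0.02 (adjusted p = 0.864). It was 10.49, 10.68, 10.43, 9.28 and 10.53 at 600 cGy, against 9.66, 9.42, 9.22, 9.62 and 9.13 at 0 cGy, so that 4 of 5 irradiated mice were above all unirradiated ones. Platelets are among the cells that carry Lat, and 10 of 11 platelet markers rose with dose at 48 hr and 11 of 11 at 72 hr, and the list mean at 48 hr was 12.22 at 1050 cGy, against 10.27 at 0 cGy. Within groups of mice, the correlation with the platelet marker mean was 0.69 for Lat, 0.55 for Cd28, 0.44 for Cd3e, 0.41 for Cd247, 0.37 for Cd3d, 0.33 for Thy1 and 0.07 for Cd3g (Pearson's r over 240 mice, values that share an array). With the means of the T cell signalling, surface and factor lists it was 0.73, 0.74 and 0.59 for Lat, and 0.77, 0.75 and 0.69 for Cd28. The part of platelets in the Lat values was not tested. Cd28 at 48 hr did fall with dose in the probe set used (slope -0.18 ± 0.02, SE; adjusted p = 3.89e-12), and its slope differed from that of Cd3d by 0.03 ± 0.02, short of the threshold (adjusted p = 0.251 over 36 differences). The other Cd28 probe set did not pass at 48 hr (slope -0.05 ± 0.02, adjusted p = 0.0896). Cd28 at 72 hr was 8.24, 8.75, 8.51, 8.69 and 8.22 at 1050 cGy, against 8.22, 8.38, 8.34, 8.51 and 8.16 at 0 cGy, and none of its 7 irradiated groups lay wholly below the unirradiated one. The Cd28 slope at 72 hr of 0.00 ± 0.02 (adjusted p = 0.972) exceeded that of Cd3d by 0.25 ± 0.02 (adjusted p = 3.08e-25), and that of Lat exceeded it by 0.24 ± 0.02 (adjusted p = 1.16e-19). In the other Cd28 probe set the signal rose with dose at 72 hr (slope 0.13 ± 0.02, adjusted p = 1.02e-06).

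**Figure D3:**
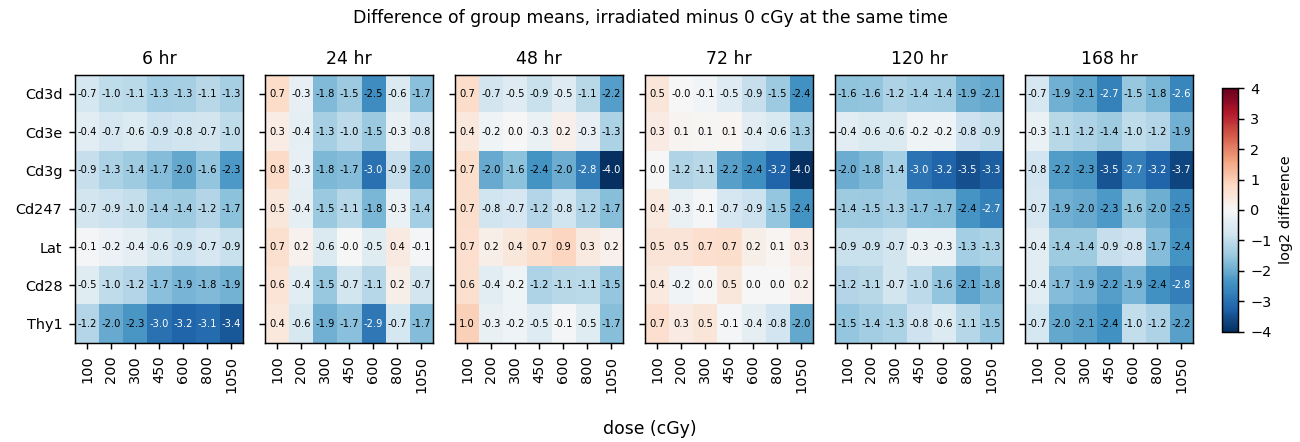
Difference of group means (log2) between each irradiated group and the unirradiated mice of the same time for the 7 genes, 5 mice a group, with blue for lower and red for higher. Cd3g reaches -4.03 at 1050 cGy at 48 and 72 hr, Lat is above 0 at 48 hr at every dose, and all 7 genes are below 0 at every dose at 6, 120 and 168 hr.

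The lowest dose, 100 cGy, gave differences of opposite sign at different times. Up to 72 hr no more than 1 of the 7 genes passed at any time in the fit over all groups. At 6 hr all 7 differences from 0 cGy were negative and 1 gene fell, Thy1 (-1.19 ± 0.45, SE; adjusted p = 0.0337), where 17.4% of all genes fell. At 24 hr all 7 differences were positive, from 0.31 (Cd3e) to 0.76 (Cd3g), but none passed, where 6.76% of all genes were called in either direction. The Cd3d mice at 24 hr had 11.36, 11.14, 11.26, 11.06 and 11.33 at 100 cGy, all above the unirradiated 10.28 to 10.76. Alb at 24 hr averaged 6.05 at 100 cGy, with 0 of 5 mice at 10 or more, and 10.78 at 0 cGy, with 3 of 5, and its part in these differences was not tested. At 48 hr Lat rose (0.67 ± 0.26, adjusted p = 0.0321) and the other 6 were positive without passing, where 17.9% of all genes rose, and at 72 hr none passed, where 13.8% were called. When only the 100 and 0 cGy groups entered the fit, so that the spread came from these mice alone, all 7 genes were called at 24 hr and 6 at 48 hr. With array weights 4 genes were called at 24 hr and 5 at 48 hr. The shares of all genes called under these alternative fits are not given here. Leaving out 1 mouse of each group in turn gave 0 to 1 calls at 6 hr and 0 to 2 at 48 hr.

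At 120 hr after 100 cGy, 6 of the 7 genes fell, all but Cd3e, where 31.7% of all genes fell. Cd3g was 7.22, 7.63, 6.41, 7.82 and 8.26 at 100 cGy, against 9.39, 9.22, 9.87, 9.49 and 9.34 at 0 cGy (difference -1.99 ± 0.43, SE; adjusted p = 1.82e-05). The groups did not overlap. The SD of the values of an array averaged 1.85 at 100 cGy and 2.15 at 0 cGy at this time, and with it as a covariate 1 gene fell. At 168 hr all 7 differences were negative, from -0.26 to -0.76, and none passed, where 15% of all genes were called in either direction. When only these groups entered the fit 6 passed, and the share of all genes under that fit is not given here.

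At 120 hr the higher doses separated Cd3g and Thy1. Cd3g was 5.81, 6.21, 6.90, 6.75 and 5.60 at 600 cGy, below every unirradiated mouse, and its slope was -0.28 ± 0.03 (adjusted p = 1.8e-15). Thy1 was 8.91, 9.96, 10.65, 10.12 and 9.11 at 600 cGy, against 10.36, 10.17, 10.48, 10.37 and 10.12 at 0 cGy, with overlapping groups and a slope of -0.05 ± 0.03 that did not pass (adjusted p = 0.185). The Thy1 slope lay above that of Cd3d by 0.08 ± 0.01 (adjusted p = 3.43e-09), the opposite sign to 6 hr. At this time 12 of 12 hepatocyte markers rose with dose and 9 of 10 neutrophil markers fell. Alb was at 10 or more in all 5 mice of each group at 450 cGy and above, with group means of 12.48 to 14.64, and in none of the unirradiated mice (mean 6.39). The part of these shifts in the values of the 7 genes was not tested.

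At 168 hr all 7 genes were lower again. Cd3d was 7.82, 6.52, 8.97, 9.12 and 7.81 at 1050 cGy, against 10.60, 10.48, 10.85, 10.69 and 10.74 at 0 cGy, a level 6.16 times lower. Lat was 7.27, 5.72, 7.47, 7.72 and 7.18 at 1050 cGy, against 9.57, 9.22, 9.62, 9.43 and 9.52 at 0 cGy. Cd28 was 5.11, 4.63, 6.17, 6.50 and 5.27 at 1050 cGy, against 8.07, 8.22, 8.56, 8.15 and 8.43 at 0 cGy. None of these 3 pairs of groups overlapped. Over all doses 45 of the 49 irradiated groups (7 genes by 7 doses) lay wholly below their unirradiated mice, against 38 at 6 hr, 39 at 120 hr and 14 at 72 hr. The 7 genes were read from the same mice, and the like share over all genes was not counted at any of these times. Cd28 had a slope of -0.23 ± 0.02 (adjusted p = 1.82e-18), and Thy1 the shallowest of the 7 at -0.10 ± 0.03 (adjusted p = 0.00245), which over 100 to 1050 cGy alone was -0.03 (adjusted p = 0.417). For Thy1 the order of doses was not steady, with means of 10.21, 9.51, 8.18, 8.07, 7.78, 9.24, 8.97 and 8.04 from 0 to 1050 cGy.

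At this time 12 of 12 hepatocyte markers rose with dose, with a list mean of 13.33 at 1050 cGy and 5.27 at 0 cGy, and 8 of 10 neutrophil markers and 10 of 11 B cell markers fell. On the 16 arrays at 168 hr with Alb below 10, which come from the lower doses, all 7 genes fell as well, with slopes from -0.46 to -0.85. The same selection left 7, 5, 6, 5 and 7 genes that fell at 6, 24, 48, 72 and 120 hr, on 39, 15, 12, 18 and 19 arrays. It kept 8, 5, 6, 7 and 4 doses at these times, up to 800 cGy at 48 hr and up to 300 cGy at 120 hr. These slopes thus do not cover the same doses as the full ones. For these selected arrays the shares of all genes that fell are not given here.

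Most of the other listed T cell genes fell with dose at 168 hr, where 46.6% of all genes fell, against 18.5% at 6 hr, and the difference between these times was not tested for the lists. Of the signalling genes 19 of 23 fell and 1 rose (median slope -0.07), of the surface genes 17 of 20 fell and 1 rose (median -0.11), and of the factors 9 of 11 fell and 2 rose (median -0.07), beside a median of -0.02 over all genes. Among those called, Trat1 (-2.30 ± 0.30 at 600 minus 0 cGy, SE) and Ptprc (-1.70 ± 0.23), which encodes the CD45 phosphatase of all leukocytes, had large differences in signalling. Cd5 (-2.27 ± 0.42), Sh2d1a (-2.005 ± 0.262), an adaptor of SLAM receptors, and Cd27 (-1.53 ± 0.34) had the largest among surface genes. Satb1 (-3.32 ± 0.35), a chromatin organiser of thymocytes, and Ets1 (-2.40 ± 0.38) fell, while Tbx21 (1.34 ± 0.36), the T-bet factor of T helper 1 and NK cells, rose.

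Over the 48 group means of the dose-time set, the highest correlations with the mean of the 7 genes, outside the 7, were those of Cd27 (r = 0.98), Trbv1 (0.97) and Trav9d-3 (0.94), both variable segments of the receptor, Cd5 (0.95), Stambpl1 (0.94) and S1pr4 (0.94). Over the 48 group means of the sex-treatment set the same genes had r of 0.94, 0.97, 0.90, 0.93, 0.64 and 0.54 in the order named. Of the 7 genes themselves, Cd247 (0.96) and Cd3d (0.95) lay closest to the common mean and Lat (0.69) farthest. The groups share doses and times, so these are descriptions.

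In the sex-treatment set, all 7 genes were lower with LPS than without agent in unirradiated mice, and none passed the threshold with GCSF. LPS is bacterial lipopolysaccharide and GCSF is a growth factor for neutrophils. At 6 hr all 7 genes fell under LPS at 0 cGy, where 20.5% of all genes fell, from -0.77 ± 0.18 for Lat to -2.79 ± 0.37 for Cd3g (adjusted p = 1.85e-10). By sex, Lat averaged 8.81 ± 0.36 in males with LPS and 8.92 ± 0.22 in males without agent (SD, n = 5 each), with overlapping mice, and 7.57 ± 0.19 in females with LPS (n = 3) and 8.998 ± 0.131 in females without agent (n = 5), with no overlap. Whether the LPS difference of Lat differed by sex was not tested. Cd3g averaged 5.42 ± 0.56 with LPS (SD, n = 8) and 8.20 ± 0.80 without agent (n = 10), and Thy1 6.64 ± 0.35 with LPS and 9.18 ± 0.63 without agent. At 24 hr all 7 fell again, where 12.7% of all genes fell, from -0.88 ± 0.17 for Lat to -2.03 ± 0.35 for Cd3g. Under GCSF none was called at 6 hr, where 0 of all genes were called (0%), and none at 24 hr, where 0.549% were called in either direction, although all 7 differences at 24 hr were negative (-0.15 to -0.79). The 24 hr GCSF difference was called for 6 of the 7 genes when only the groups compared entered the fit, and for 6 with array weights. For these alternative fits the shares of all genes called are not given here.

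Neutrophil and B cell markers moved with LPS as well. At 24 hr and 0 cGy 10 of 10 neutrophil markers rose under LPS and 11 of 11 B cell markers fell, and at 6 hr 7 of 10 and 10 of 11 did. At 24 hr the mean of the neutrophil markers was 11.67 in female and 12.07 in male LPS mice, against 8.14 in female and 8.50 in male mice without agent. Its part in the values of the 7 genes was not tested.

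**Figure D4:**
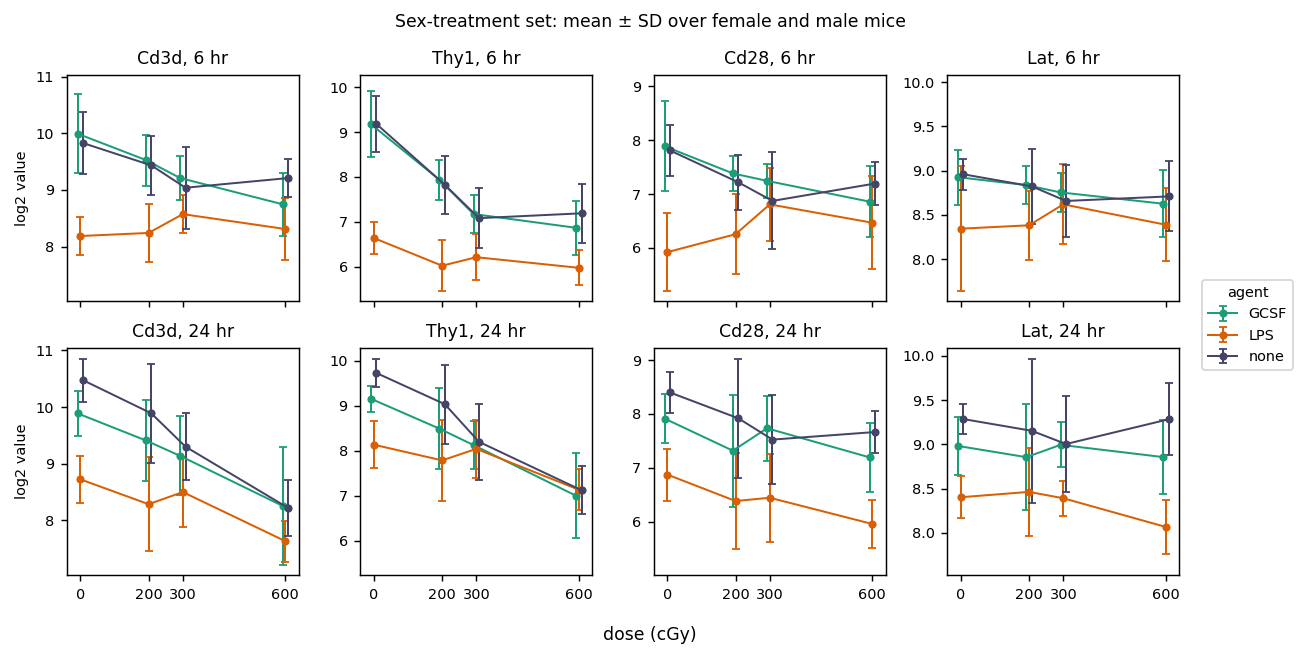
Log2 signal (mean ± SD over female and male mice, 7 to 10 mice a group) of Cd3d, Thy1, Cd28 and Lat against dose in cGy at 6 and 24 hr, with GCSF, LPS or no agent. The LPS mice start lower at 0 cGy in all 8 panels, at 8.19 for Cd3d at 6 hr against 9.83 without agent.

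Without agent, 2 genes fell with dose at 6 hr in this set, where 12.4% of all genes fell. Cd3d averaged 9.83, 9.43, 9.04 and 9.21 at 0, 200, 300 and 600 cGy (slope -0.10 ± 0.04, adjusted p = 0.0446), and Thy1 9.18, 7.83, 7.08 and 7.19 (slope -0.32 ± 0.04, adjusted p = 1.3e-09). By sex, the Cd3d means differed from those at 0 cGy by -0.09, -0.30 and -0.06 at 200, 300 and 600 cGy in males, with overlap at each dose, and by -0.70, -1.28 and -1.18 in females, with overlap at 200 cGy only. The male slope lay above the female one by 0.18 ± 0.08, short of the threshold (adjusted p = 0.108). With GCSF 6 fell at 6 hr, all but Lat, where 23.9% of all genes fell, and with LPS none passed, where 15.8% fell. At 24 hr 6 fell without agent, where 22.9% of all genes fell, with slopes of -0.38 for Cd3d, -0.42 for Cd3g and -0.44 for Thy1 and of 0.00 ± 0.03 for Lat. With GCSF 5 fell at 24 hr, where 17.4% of all genes fell, and with LPS 5 fell, where 9.80% fell. Lat had no called slope under any agent, or without one, at either time. In the dose-time set it had fallen with dose at 6 hr (-0.09 per 100 cGy in limma, adjusted p = 7.59e-05).

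The dose slopes themselves were shallower with LPS for some of the genes. The slope with LPS lay above that without agent for Cd28 (0.20 ± 0.07, adjusted p = 0.0436) and Thy1 (0.23 ± 0.06, adjusted p = 0.0137) at 6 hr, where 2.49% of all genes had a higher slope. At 24 hr it was higher for Cd3d (0.21 ± 0.06, adjusted p = 0.00293), Cd3e (0.19 ± 0.04, adjusted p = 1.14e-05), Cd247 (0.18 ± 0.05, adjusted p = 0.00538) and Thy1 (0.29 ± 0.06, adjusted p = 0.000187), where 7.42% of all genes had a higher slope. At 600 cGy and 24 hr Thy1 averaged 7.13 ± 0.45 with LPS and 7.12 ± 0.54 without agent (SD, n = 10 each), whereas at 0 cGy it averaged 8.13 ± 0.53 with LPS (n = 9) and 9.73 ± 0.32 without agent (n = 10). For GCSF no slope difference was called among the 7 genes at 6 hr, where 0.0161% of all genes were called in either direction, or at 24 hr, where 0.00807% were. Leaving out 1 mouse of each group in turn gave 0 to 1 calls for the LPS difference at 6 hr and 4 at 24 hr. The agents share the mice without agent.

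Between male and female mice, the 7 genes were called at 6 hr at about the share of all genes. At 0 cGy without agent, Cd3d averaged 9.41 ± 0.42 in males and 10.25 ± 0.28 in females (SD, n = 5 each; difference -0.83 ± 0.33, SE, adjusted p = 0.0481), and Thy1 8.64 ± 0.38 in males and 9.72 ± 0.17 in females (difference -1.08 ± 0.38, adjusted p = 0.0264). These 2 of 7 genes compare with 27.8% of all genes called in either direction, and leaving out 1 mouse of each group in turn gave 0 to 1 calls among the 7. At 24 hr none of the 7 was called, where 0.0726% of all genes were. The dose slopes without agent did not differ past the threshold for any of the 7 genes at 6 hr, where 10.3% of all genes were called, or at 24 hr, where 0% were. The hepatocyte marker mean at 6 hr was 7.38 ± 3.05 in these males and 5.33 ± 0.71 in the females.

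In the small treatment set at 6 hr, Thy1 again fell most. After 150 cGy none of the 7 genes fell without agent, with GCSF or with LPS, where 1.07%, 0.807% and 2.40% of all genes fell. After 600 cGy Thy1 fell without agent (-1.36 ± 0.40, SE; adjusted p = 0.0277), where 1.86% of all genes fell, with means of 8.43 ± 0.62 (SD, n = 5) at 600 cGy and 9.79 ± 1.08 (n = 6) at 0 cGy. That call was lost whenever 1 mouse of each group was left out. With GCSF Cd3d, Cd3e, Cd247 and Thy1 fell at 600 cGy, where 14.1% of all genes fell, Thy1 averaging 7.71 ± 0.67 at 600 cGy (n = 5) and 10.42 ± 0.25 at 0 cGy (n = 6). With LPS Cd3g (-1.28 ± 0.37, adjusted p = 0.013) and Thy1 (-1.70 ± 0.38, adjusted p = 0.00138) fell, where 9.55% of all genes fell. The differences between agents in these effects were not tested.

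Without radiation all 7 genes fell with LPS in these mice too, where 16% of all genes fell. The differences ran from -0.67 ± 0.14 for Lat to -1.88 ± 0.38 for Thy1 (adjusted p from 0.000173 to 0.0179), while 7 of 10 neutrophil markers rose and 1 of 11 B cell markers fell. The B cell marker mean was 8.66 ± 0.19 with LPS and 9.07 ± 1.19 without agent (SD, n = 6 each). The mice without agent spread widely, with a lowest value of 6.68 and a median of 9.60. Under GCSF none of the 7 was called, where 0.549% of all genes were called in either direction.

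At 7 days after 150 cGy, all 7 genes fell in the small 7 day set, where 33.3% of all genes fell. Cd3d ranged from 8.96 to 10.29 with a median of 9.63 in the 10 irradiated mice, against 11.63, 10.995 and 11.77 in the 3 unirradiated ones (difference -1.83 ± 0.26, SE; adjusted p = 2.87e-05). Cd3g ranged from 7.54 to 8.85 with a median of 8.14 in irradiated mice, against 10.85, 10.13 and 10.10 in unirradiated ones (difference -2.15 ± 0.27, adjusted p = 1.18e-05), a level 4.43 times lower. The irradiated and unirradiated mice did not overlap for 6 of the 7 genes, and the share of all genes without overlap was not counted. Cd3e was the exception, with 8.42 to 9.38 in irradiated and 9.20 to 9.76 in unirradiated mice and the smallest difference (-0.48 ± 0.18, adjusted p = 0.0255), whose sign turned under quantile normalization (0.16, not past the threshold). Cd247 (-1.75 ± 0.31), Thy1 (-1.71 ± 0.29), Cd28 (-1.68 ± 0.35) and Lat (-1.10 ± 0.21) lay between.

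**Figure D5:**
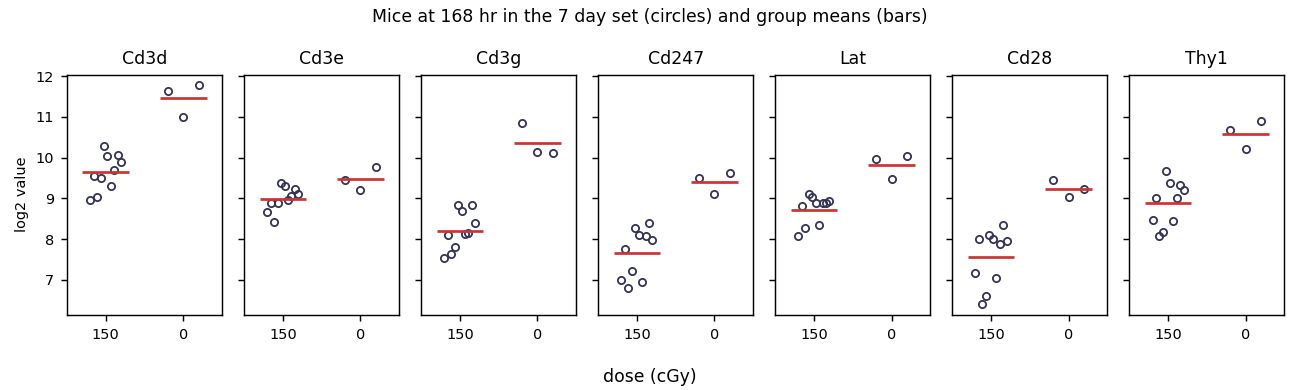
Log2 signal of the 7 genes in the 10 mice at 168 hr after 150 cGy (left of each panel) and the 3 unirradiated mice (right), with bars at the group means. The groups overlap in the Cd3e panel only, and the Cd3d mice lie at 8.96 to 10.29 after 150 cGy against 10.995 to 11.77 without radiation.

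The SD of the values of an array averaged 1.99 in the irradiated and 2.27 in the unirradiated mice of this comparison, and with it as a covariate 4 of the 7 genes fell. The B cell marker mean was 8.29 ± 0.30 in irradiated and 10.11 ± 0.14 in unirradiated mice (SD, n = 10 and 3), the red cell precursor marker mean 11.44 ± 0.40 in irradiated and 10.37 ± 0.17 in unirradiated mice, and Alb 8.96 ± 2.12 in irradiated and 6.23 ± 1.20 in unirradiated mice. In the dose-time set at 168 hr, 100 cGy had given negative differences that did not pass, and 200 cGy means were lower than unirradiated ones by 1.91 for Cd3d and 2.25 for Cd3g.

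Where none of the 7 genes passed in limma, up to 4 had an unadjusted p under 0.05. Their number was 1 in the 100 cGy comparison at each of 24, 72 and 168 hr, 2 for the LPS slope at 6 hr, 0 for GCSF at 6 hr in either set and 4 for GCSF at 24 hr. It was 1 for both GCSF slope differences, for sex at 24 hr and for the sex difference of the slope at either time, and after 150 cGy it was 0 without agent or with GCSF and 1 with LPS. The shares of all genes with an unadjusted p under 0.05 are not given here.

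Among the probe sets, 2 of the 7 genes had more than 1. For Cd247, the probe set used fell at 6 of 6 times in the dose-time set, as did one other, while another fell at 4 of 6 and the dimmest, whose mean signal stood at percentile 6.3 of all genes, at 2 of 6. For Cd28, the probe set used (mean signal 7.35) fell at 4 of 6 times, at 6, 48, 120 and 168 hr. The other, nearly as bright (7.05), fell at 6 and 168 hr, rose at 72 hr and did not pass at 24, 48 or 120 hr. The time course of Cd28 thus depended on the probe set. Within groups, the mice's deviations from the group mean correlated between Cd3d and Thy1 (r = 0.94) and Cd3d and Cd247 (r = 0.90), and least between Cd3g and Lat (r = 0.35, 240 mice, values of one array).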

How the data were processed

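Peripheral blood RNA of 534 mice was measured on 536 one-colour arrays, and 2 repeat scans were averaged with the first scan of their mouse. The deposited values are log2 signals made with RMA in affy, per the submitters' processing notes, which name no versions, and range from 2.17 to 14.85 with array medians of 5.61 to 5.93. The design text speaks of several batches, and whether RMA was run over all of them together is not given in the sources used here, so tests were made within each of the 4 sets of mice only. Of 22690 probe sets, 64 controls were dropped, as were 1555 that name no gene and 691 that name more than 1. The remaining 20380 named 12393 genes, and a gene was read from its brightest probe set on average. All 7 genes lay above the 30th percentile of gene means (5.27).

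Groups were taken from the labels, where each mouse has its own number. One limma model (version 3.58.1, R 4.3.3) was fitted to all groups of a set, with 192, 178, 41 and 14 residual degrees of freedom in the dose-time, sex-treatment, small treatment and small 7 day sets. Contrasts of the group means gave differences and dose slopes, with Benjamini-Hochberg adjustment over all genes and a threshold of 0.05. Differences between slopes of 2 genes were fitted within arrays and adjusted over 36 tests. In simulated data for the dose slope at 6 hr with 12393 genes, 100% of slopes of -0.2, 92% of -0.1, 96% of 0.1 and 98% of 0.2 were recovered. Python 3.11.15 with pandas 2.3.3, numpy 2.4.6 and matplotlib 3.10.9 served for summaries and figures. Beyond the 7 genes, genes were named by rule. From each T cell list, these were the 3 called genes with the largest difference between 600 and 0 cGy at 6 and 168 hr, and outside the lists those most like the mean of the 7. One gene that this rule picks from the signalling list is not reported here.

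The 7 genes, the lists and the tests were chosen with earlier results of these data known. The alternatives included other normalizations, probe sets, covariates, blocks and left-out mice. Chosen after seeing the data were the slope over 100 to 1050 cGy, the slope at 24 hr without the 800 cGy mice, the fits without the 4 mice that stand apart and the slope differences between genes. Arrays give no read depth, and the number of mice limits the precision. Mouse numbers did not pair mice across groups: same-numbered mice had mean correlations of 0.02 in the dose-time, 0.04 in the sex-treatment, 0.06 in the small treatment and -0.13 in the small 7 day set.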

Additional observations from a re-analysis of the deposited data

Results flagged for a closer look

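Single mice stood apart from their group in 46 of 602 tests of a group's highest or lowest value for one gene, where chance gives about 1 in 20. Mouse 10 of the 800 cGy group at 24 hr was low in Cd3d (7.63), Cd3e (8.31), Cd3g (4.58), Cd247 (6.23), Lat (9.31), Cd28 (7.27) and Thy1 (6.42). Mouse 4 of the 300 cGy group at 48 hr was low in Cd3d (8.16), Cd3e (8.39), Cd247 (6.19), Cd28 (7.23) and Thy1 (7.36). Male mouse 3 at 200 cGy with LPS and 24 hr was high in Cd3d (10.42), Cd3e (9.23), Cd247 (8.41), Lat (9.70) and Cd28 (8.39). Mouse 10 of the unirradiated group without agent in the small treatment set was low in Cd247 (7.08), Cd28 (6.53) and Thy1 (7.70).

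The other single values were scattered. In the dose-time set the low ones were Cd28 at 200 cGy and 6 hr (6.19), Cd3e at 0 cGy and 24 hr (9.25), Cd3d at 450 cGy and 48 hr (8.68), Lat at 600 cGy and 48 hr (9.28), Cd3d (6.87) and Thy1 (6.53) of mouse 7 at 200 cGy and 72 hr, Cd247 at 200 cGy and 168 hr (5.83), Cd3e (7.57) and Thy1 (8.06) of mouse 1 at 800 cGy and 168 hr, and Lat at 1050 cGy and 168 hr (5.72). The high ones were Thy1 at 200 cGy and 24 hr (9.61), Cd3g at 800 cGy and 72 hr (6.45) and Cd247 at 200 cGy and 120 hr (8.05). In the small treatment set, Cd3e at 600 cGy without agent (9.43) and Cd28 at 0 cGy with LPS (7.90) were high and Cd28 at 0 cGy with GCSF (5.65) was low. In the sex-treatment set at 6 hr, Cd28 in a male at 0 cGy with GCSF (5.89), Thy1 in a male at 300 cGy with GCSF (6.17), Lat (7.44) and Cd28 (4.95) in female mouse 3 at 300 cGy with LPS, Cd3d in a female at 300 cGy without agent (7.30) and Thy1 in a male at 0 cGy without agent (7.98) were low, and Cd28 in a female at 0 cGy without agent (8.38) was high. At 24 hr Lat in a male at 300 cGy with LPS (7.98) and Lat (8.99) and Cd28 (7.63) in male mouse 1 at 0 cGy without agent were low.

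Dose slopes differed between times in limma's moderated F test for Cd3d (adjusted p = 0.00355), Cd3g (adjusted p = 2.24e-06), Cd247 (adjusted p = 0.00296), Lat (adjusted p = 5.99e-10), Cd28 (adjusted p = 7.72e-12) and Thy1 (adjusted p = 4.17e-05). Of all genes, 92.3% passed the same F test, so such a difference was not particular to these genes. The slope with LPS differed from that without agent in limma for Cd28 (adjusted p = 0.0436) and Thy1 (adjusted p = 0.0137) at 6 hr, and for Cd3d (adjusted p = 0.00293), Cd3e (adjusted p = 1.14e-05), Cd247 (adjusted p = 0.00538) and Thy1 (adjusted p = 0.000187) at 24 hr. Of all genes, 2.49% at 6 hr and 7.42% at 24 hr had a higher slope with LPS, the direction of these calls.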

How the results depend on the processing

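Directions were compared only for values past the threshold in at least one of the fits. Apart from the ranges of the dose slopes at the end, the number of all genes called under an alternative is not given here. Most results per gene kept their side of the threshold, 280 of 280 with a trended and robust prior, 277 of 280 with arrays centred on their median and all but 2 with the array run as a block. No replicate pairing was found. With the mouse number as a replicate block, 272 of 280 results kept their side, and the number of the 7 genes called moved to 2 in place of 1 for 100 cGy at 6 hr and 4 in place of 1 at 48 hr. The cause of the changes below was not tested.

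Reversed signs came mostly from 2 other Cd247 probe sets. The dimmest one gave slopes of 0.0192 at 6 hr and 0.0094 at 24 hr in the dose-time set, differences at 100 cGy of 0.2924 at 6 hr, -0.3855 at 48 hr and 0.4278 at 120 hr, and slopes in the sex-treatment set of 0.0375 with GCSF at 6 hr, 0.0196 without agent at 24 hr and 0.0337 with LPS at 24 hr. Its LPS differences were 0.2496 at 6 hr and 0.0634 at 24 hr, and in the small sets it gave 0.0926 at 600 cGy with GCSF, 0.1511 for LPS and 0.2423 at 7 days. Another one, which fell with dose at 4 of 6 times, gave slopes of 0.0023 at 24 hr, 0.025 with GCSF at 6 hr and 0.009 with LPS at 24 hr, differences at 100 cGy of -0.6329 at 48 hr and 0.1204 at 120 hr, 0.6793 for sex at 6 hr, 0.2125 for LPS in the small set and 0.0466 at 7 days. Cd3e at 7 days was 0.159 after quantile normalization, and its slope at 120 hr was 0.009 in array run 4 and 0.0371 in run 5.

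Of the 7 genes, the number called at 100 cGy became, at 6 hr, 0 with array spread as a covariate, 2 without the mice that stand apart and 3 with only the groups compared in the fit, in place of 1. At 24 hr it became 4 with array weights and 7 with only the groups compared, in place of 0, and at 48 hr 0 after quantile normalization or with array spread, 5 with weights and 6 with only the groups compared, in place of 1. At 120 hr it was 1 with array spread, in place of 6, and at 168 hr 5 with weights and 6 with only the groups compared, in place of 0. For the slope at 6 hr without agent it was 1 after median centring, 5 with weights and 1 with array spread, in place of 2. With LPS at 6 hr it was 3 after quantile normalization, 1 with the mean of probe sets, 1 with weights, 3 with array spread and 1 with only the groups compared, in place of 0. For GCSF at 24 hr it was 6 with weights and 6 with only the groups compared, in place of 0. For the LPS slope difference at 6 hr it was 1 after centring, 4 with weights and 6 with array spread, in place of 2. For sex it was 0 after quantile normalization, 0 with array spread and 5 with only the groups compared at 6 hr, in place of 2, and 1 with weights at 24 hr, in place of 0. In the small treatment set at 600 cGy it was 2 with weights, 2 with array spread, 2 without the mice that stand apart and 0 with only the groups compared without agent, in place of 1, and 1 with only the groups compared with LPS, in place of 2. At 7 days it was 4 with array spread, in place of 7.

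Leaving out 1 mouse of each group in turn gave slope counts of 5 to 7 at 6 hr, 4 to 5 at 24 hr, 6 at 48 hr, 5 at 72 hr, 5 to 7 at 120 hr and 7 at 168 hr. At 100 cGy it gave 0 to 1 at 6 hr, 0 to 2 at 48 hr, 6 at 120 hr and 0 at the other times. In the sex-treatment set slopes it gave 1 to 2 without agent at 6 hr, 5 to 6 with GCSF at 6 hr, 0 with LPS at 6 hr, 5 to 6 without agent and with GCSF at 24 hr and 3 to 5 with LPS at 24 hr. It gave 7 for LPS at either time, 0 to 1 for the LPS slope difference at 6 hr and 4 at 24 hr, and 0 to 1 for sex at 6 hr. In the small sets it gave 0 without agent, 2 to 5 with GCSF and 2 with LPS at 600 cGy, 5 to 7 for LPS and 6 to 7 at 7 days. Over all genes, the number that fell with dose ranged over the alternatives from 565 to 2857 at 6 hr (2297 as reported), 1135 to 3130 at 24 hr (2456), 2076 to 3439 at 48 hr (2888), 2279 to 4196 at 72 hr (3359), 2872 to 6296 at 120 hr (5821) and 3398 to 6230 at 168 hr (5777).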
